A study of Homo sapiens with 5 samples.

Results

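The 10 genes described here encode precursors of neuropeptides. They are TRH, CRH, HCRT, TAC1, NTS, ADCYAP1, PTH2, SST, GAL and NPY, and they were found by symbol among 33538 genes listed for 3 conditions and 36601 genes listed for the other 5. They were picked from these same data for their levels and for their presence in cells with GNRH1, with DLX1, DLX2 or DLX5, or with IRX3 at D22, D24 and D26. Their values are therefore given as a description, without a test. The study followed the differentiation of GnRH neurons, the cells that control reproduction through gonadotropin-releasing hormone, from WA09, an established human embryonic stem cell line of wild-type genotype, by single-cell RNA sequencing on 10x Genomics droplets. D0 was undifferentiated WA09. D5_dSMADi and D10_dSMADi were taken on days 5 and 10 of dual-SMAD inhibition (dSMADi), which turns stem cells into neural progenitors, and D5_XAV939 and D10_XAV939 had XAV939, an inhibitor of Wnt signalling, in addition. D22, D24 and D26 were taken after dSMADi, FGF8, which patterns anterior progenitors, and the Notch inhibitor DAPT, which makes progenitors leave the cell cycle, and had no XAV939. The 5 conditions of D0, D5 and D10 were tagged, pooled and sequenced as 1 library, and D22, D24 and D26 were 1 library each. All 8 conditions came from 1 cell line with no replicate, so a difference between conditions cannot be told apart from a difference between cultures. A difference between any 2 of D22, D24 and D26, or between one of them and an earlier condition, cannot be told apart from a difference between libraries either.

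Neuropeptides are made as long precursor proteins in the endoplasmic reticulum, sorted into dense-core vesicles and cut by the prohormone convertases PCSK1 and PCSK2. Carboxypeptidase E (CPE) trims the products and PAM amidates many of them. The peptides act slowly and at a distance on G protein-coupled receptors, often beside a fast transmitter such as GABA or glutamate. In the hypothalamus several of them (TRH, CRH, SST) set the output of the pituitary, and others (HCRT, GAL, NPY) act on arousal and feeding.

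The stretches before the start of TAC1 and of SST are shown because the results turn on TAC1 in cells with GNRH1 or DLX genes and on SST in few cells. The sequences are from RefSeq on GRCh38.p14 and run 5′ to 3′ on the strand of the gene, ending 1 base before the start of transcription in the RefSeq table. For TAC1 that start lies downstream of the start of the GENCODE gene given with its levels. Capitals mark the only match in each stretch to 1 of 4 words searched on both strands.
TAC1 (chr7:97731836-97732085, plus strand): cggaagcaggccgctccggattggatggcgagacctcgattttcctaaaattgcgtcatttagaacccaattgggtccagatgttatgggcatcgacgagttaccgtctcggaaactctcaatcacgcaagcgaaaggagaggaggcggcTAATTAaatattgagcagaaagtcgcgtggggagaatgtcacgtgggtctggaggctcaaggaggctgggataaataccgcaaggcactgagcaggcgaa
SST (chr3:187670395-187670644, minus strand): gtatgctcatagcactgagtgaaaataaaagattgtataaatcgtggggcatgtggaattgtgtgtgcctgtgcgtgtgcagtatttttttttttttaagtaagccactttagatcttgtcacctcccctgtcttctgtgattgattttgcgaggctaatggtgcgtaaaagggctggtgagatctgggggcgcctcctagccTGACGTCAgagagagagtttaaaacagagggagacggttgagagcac

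The TAC1 stretch holds TAATTA, the core word bound by many homeodomain proteins, at -100 to -95 from the start, and 4.35% of 35116 promoters of this length hold it. The SST stretch holds TGACGTCA, the cAMP response element, at -47 to -40, which 1.65% of the promoters hold. The word CAGATGG, an E-box, was found at -16 to -10 from the RefSeq start of TRH and is in 3.55% of promoters. The stretch for TRH ends at 129974719 and the GENCODE gene starts at 129974688, so this word lies inside the GENCODE gene. The fourth word, CATATG (2.63% of promoters), was found before none of the 8 precursors with a sequence in the RefSeq table. CRH and GAL were not in it. A match describes these letters and not a bound site.

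Depth differed between the conditions. The 1009 cells kept at D0 had a median of 69455 unique molecular identifiers (UMIs), those of D5 and D10 24290.5 to 31112.5, and the 9523, 9107 and 11056 cells of D22, D24 and D26 had 12179, 7180 and 8485. A level is given in counts per 1000000 (CPM), the UMIs of a gene over all cells of a group scaled to 1000000 UMIs of that group. Shares of cells are also given after each cell was thinned to 1500 UMIs (D22 to D26) or 10000 UMIs (D0 to D10), where no cell was too shallow. Intervals are at 95% and cover counting error only. The pluripotency gene POU5F1 stood at 1244 CPM at D0, the neuronal gene STMN2 at 1294, 9045 and 8093 CPM at D22, D24 and D26, and GNRH1 at 5.85, 1133 and 3272 CPM. The hypothalamic regulators NKX2-1, OTP, RAX and SIM1 summed to 2.65 CPM at D0, to 34.2 to 58.2 CPM in the conditions of D5 and D10, where RAX made up nearly all of it, and to 7.25, 2.14 and 1.24 CPM at D22, D24 and D26. RNA free in the droplets was not removed: at D26, 44.0% of all cells, and 36.3% of cells with TBR1 or PPP1R17, had at least 1 GNRH1 UMI.

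The precursors found in cells differed among the conditions. With a precursor counted as detected where at least 1% of thinned cells held a UMI, 3 were detected at D0 (GAL, NTS, TAC1), 2 in D5_dSMADi (PTH2, GAL), 1 in D5_XAV939 (GAL), 2 in D10_dSMADi (TRH, GAL) and 5 in D10_XAV939 (SST, TRH, CRH, ADCYAP1, GAL). Thinning was drawn once here, and some shares lay close to the limit, such as GAL in D10_XAV939 at 1.01% (0.637% to 1.53%) and PTH2 in D5_XAV939 at 0.959%. At D22 TRH and HCRT were detected. At D24 the number was 7 of 10, all but SST, GAL and NPY, and at D26 it was 4 (TAC1, TRH, ADCYAP1, HCRT). The conditions up to D10 were thinned to more UMIs than the later ones, so these numbers are not comparable between the early and the late conditions. With every condition thinned to 1500 UMIs, NTS and GAL were detected at D0, none in either D5 condition, TRH in D10_dSMADi and SST in D10_XAV939.

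**Figure D1:**
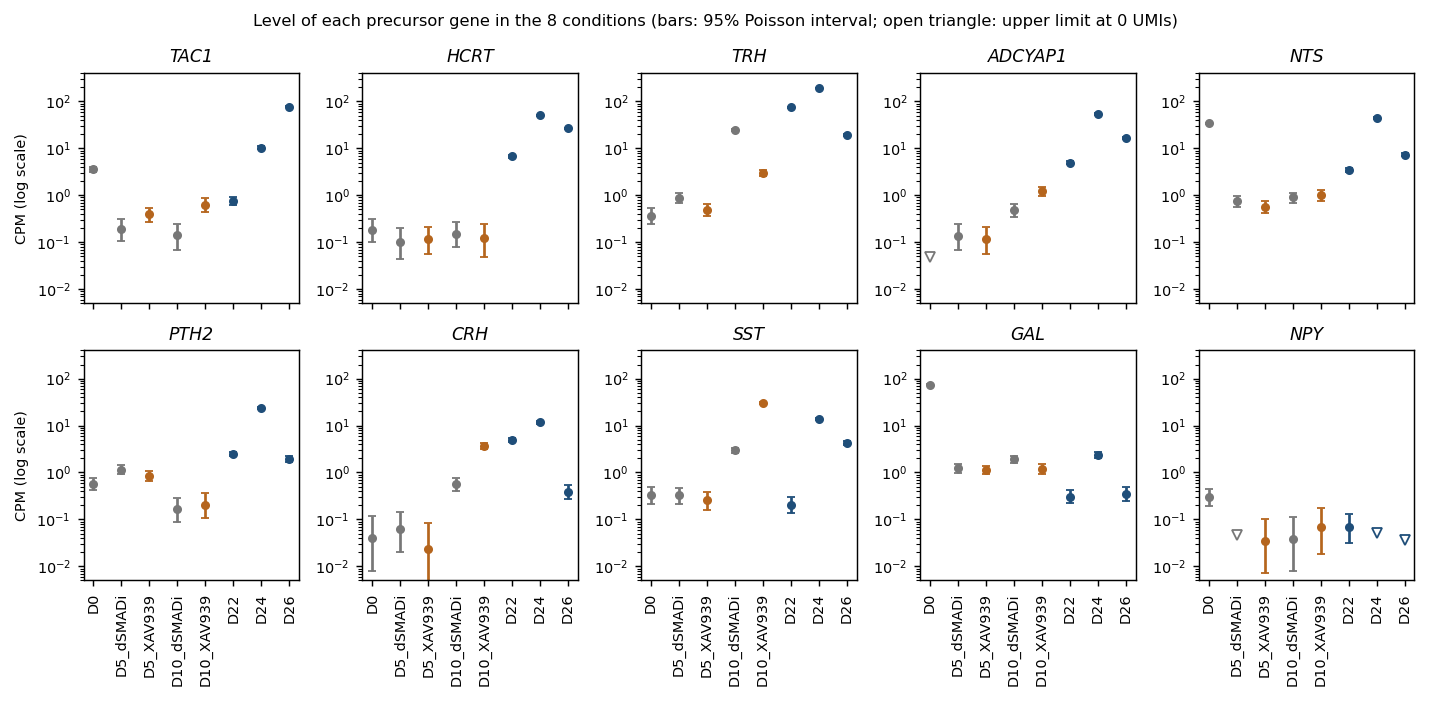
Level of each precursor gene (CPM, log axis) in the 8 conditions, with 95% Poisson intervals of counting error; grey points are D0 and the dSMADi conditions, orange points the XAV939 conditions and blue points D22 to D26, and an open triangle is the upper limit at 0 UMIs. TRH, ADCYAP1, NTS, PTH2 and CRH stand higher at D24 than at D22 and D26, TAC1 is highest at D26, and GAL is highest at D0.

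TRH, which encodes thyrotropin-releasing hormone, was present from D10 on. Its level was 0.369 CPM at D0, 0.891 CPM in D5_dSMADi and 24.8 CPM in D10_dSMADi, and 0.496 and 3.01 CPM in the XAV939 conditions of D5 and D10. It then stood at 75.5 CPM at D22, 195 CPM at D24 and 19.6 CPM at D26. At D24 46.9% of cells held a TRH UMI (20.2% after thinning), against 34.0% (9.10%) at D22 and 11.9% (2.41%) at D26, so over all cells the level and the share of cells moved the same way. The 5 cells with most TRH UMIs held 1.28% to 3.08% of them at D22, D24 and D26 and 6.08% in D10_dSMADi, but 41.9% in D5_XAV939 and 42.3% in D10_XAV939.

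CRH encodes corticotropin-releasing hormone, the first peptide of the stress axis. It was at 0.0231 to 0.559 CPM in D0, both D5 conditions and D10_dSMADi, at 3.69 CPM in D10_XAV939, at 4.91 and 11.7 CPM at D22 and D24, and at 0.392 CPM at D26. At D24 5.29% of cells held a CRH UMI (1.49% after thinning), with at most 12 UMIs in a cell, while at D22 1 cell alone held 53 of 641 UMIs.

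HCRT, the precursor of the orexins of arousal (chr17:42184060-42185452, minus strand), was low early and found in many cells late. It was at most 0.184 CPM in the 5 conditions up to D10, and reached 6.75 CPM at D22, 50.3 CPM at D24 and 26.7 CPM at D26. Its share of cells was 6.87%, 26.3% and 15.6% on these days (1.17%, 7.17% and 3.64% after thinning). Never more than 12 UMIs were seen in 1 cell of D22 to D26, and at D24 684 cells were needed to hold 50% of its 3530 UMIs.

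TAC1, the precursor of substance P and neurokinin A (chr7:97732084-97740472, plus strand), was the single precursor of the 10 that was at least 2-fold higher at D26 than at D24. It was at 3.57 CPM at D0, 0.140 to 0.637 CPM at D5 and D10, 0.759 CPM at D22, 10.3 CPM at D24 and 77.9 CPM (76.2 to 79.7) at D26. A TAC1 UMI was found in 0.693% of cells at D22 (0.126% after thinning), in 4.43% at D24 (1.31%) and in 22.1% at D26 (7.45%). At D0, where cells were deepest, 21.3% of cells held a TAC1 UMI before thinning and 2.38% after it, with at most 4 UMIs in a cell.

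ADCYAP1 encodes PACAP, a peptide that raises cAMP in its target cells, and NTS encodes neurotensin. ADCYAP1 had 0 UMIs at D0, 0.115 to 1.22 CPM at D5 and D10, and 4.97, 54.4 and 16.4 CPM at D22, D24 and D26. On its opposite strand 2 long noncoding RNAs overlap its exons. NTS was high at D0 and again at D24, with 34.2 CPM at D0, 0.577 to 1.02 CPM at D5 and D10, and 3.44, 44.2 and 7.25 CPM at D22, D24 and D26. At D24 29.3% of cells held an ADCYAP1 UMI (7.59% after thinning) and 13.6% an NTS UMI (4.96%). PTH2, the precursor of TIP39 and ligand of the receptor PTH2R, had 0.165 to 1.15 CPM up to D10 and 2.49, 23.3 and 1.98 CPM at D22, D24 and D26, with a UMI in 11.4% of D24 cells (3.11%).

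SST encodes somatostatin, which holds back the release of other hormones (chr3:187668912-187670394, minus strand). It was at 0.254 to 0.329 CPM at D0 and D5, 3.00 CPM in D10_dSMADi, 30.3 CPM in D10_XAV939, 0.207 CPM at D22, 13.7 CPM at D24 and 4.31 CPM at D26. These levels rested on few cells: 2.91% of D10_XAV939 cells held an SST UMI (1.85% after thinning) and 0.681% of D24 cells (0.428%), and single cells held up to 300 UMIs in D10_XAV939 and 361 UMIs at D24. GAL, the precursor of galanin, was a gene of the stem cells, at 74.2 CPM with a UMI in 96.7% of cells at D0 (52.1% after thinning), and lay between 0.307 and 2.41 CPM in every later condition. NPY, the feeding peptide, was at 0.303 CPM at D0 and at most 0.0690 CPM in any later condition. It had 0 UMIs at D24 and D26, for which a floor of 3 UMIs gives 0.0428 and 0.0302 CPM.

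Ratios between conditions were called where they were at least 2-fold and their interval left out equal levels. The share of all genes called is over genes with at least 50 UMIs in the groups compared, a minimum that not every precursor reached. From D0 to D5_dSMADi, 4 precursors were called lower, where 22.4% of all genes were. GAL fell by 5.92 on the log2 scale (-6.22 to -5.63), NTS fell by 5.51 and TAC1 fell by 4.25, and NPY was lower by its limit at 0 UMIs. TRH (log2 ratio 1.27) and ADCYAP1 (at least 1.80, from 0 UMIs) were called higher, beside 12.0% of all genes. Of the 6 precursors with at least 50 UMIs, 3 were lower (GAL, NTS and TAC1) and 1 higher (TRH). Of the 3 with the deepest falls, NTS stood above its D0 level again at D24 and TAC1 at D24 and D26, and GAL did not.

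From D5_dSMADi to D10_dSMADi, TRH (log2 ratio 4.80), SST (3.20), CRH (3.15) and ADCYAP1 (1.81) were called higher, beside 10.2% of all genes, and PTH2 fell by 2.81, beside 2.86%. Of the 5 with at least 50 UMIs, TRH and SST were higher and PTH2 lower. From D5_XAV939 to D10_XAV939 these precursors moved in the same directions: CRH by 7.32, SST by 6.90, ADCYAP1 by 3.41 and TRH by 2.60, beside 7.69% of all genes, and PTH2 fell by 2.03, beside 3.60%. CRH in D5_XAV939 rested on 2 UMIs, so its ratio lies between 5.45 and 10.37.

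At D10 TRH was lower with XAV939, and 4 precursors were higher. In D10_XAV939 over D10_dSMADi SST (log2 ratio 3.34, interval 3.14 to 3.54), CRH (2.72, interval 2.25 to 3.22), TAC1 (2.19, from 37 and 11 UMIs) and ADCYAP1 (1.34, interval 0.75 to 1.95) were called higher, where 2.70% of all genes were. TRH fell by 3.04 (-3.27 to -2.82), where 4.52% of all genes were lower, and NTS, PTH2, HCRT, GAL and NPY were not called, with GAL at -0.66 (-1.09 to -0.24). Of the 6 precursors with at least 50 UMIs, 3 were called higher (SST, CRH, ADCYAP1) and TRH lower. Without the 5 cells that held most UMIs of the gene in each condition the ratios were 5.16 for SST, 6.13 for CRH, 2.03 for ADCYAP1 and -3.75 for TRH. The removed cells held 86.9% of SST, 95.5% of CRH, 57.9% of ADCYAP1 and 6.08% of TRH UMIs in D10_dSMADi. In D10_XAV939 they held 53.5%, 51.9%, 32.4% and 42.3%. These unequal shares by themselves raise the first 3 ratios and lower that of TRH, and the CRH ratio rests on 2 UMIs left in D10_dSMADi. With the mean of each cell's own CPM in place of summed UMIs ADCYAP1 was at 0.93 and no longer called. At D5, TAC1 was called higher with XAV939 (1.06, from 34 and 15 UMIs, beside 1.79% of all genes) and none of the 10 was called lower (1.64%). The TAC1 call was lost without its 5 top cells (1.07, interval -0.29 to 2.59) and with the mean of each cell's own CPM (0.87). TRH at D5, at -0.85 (-1.43 to -0.28), became called lower under the same alternatives, at -1.36 (-2.10 to -0.66) and -1.26, and of the 4 precursors with at least 50 UMIs none was called in either direction.

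The D10 conditions differed in neurons as well. STMN2 was at 20.2 CPM in D10_dSMADi and 113 CPM in D10_XAV939, and cells with at least 20 STMN2 UMIs, called STMN2-high, numbered 17 of 2416 and 68 of 2168. In D10_dSMADi the STMN2-high cells held SST at 586 CPM, CRH at 114 CPM, ADCYAP1 at 105 CPM and PTH2 at 14.2 CPM, against 0.383, 0.0510, 0.0128 and 0.102 CPM in the other cells. In D10_XAV939 they held SST at 990 CPM, CRH at 122 CPM, ADCYAP1 at 40.7 CPM and PTH2 at 4.59 CPM, against 0.568, 0.0178, 0 and 0.0710 CPM. CRH in D10_dSMADi rested on few cells, with 30 of 44 UMIs in 1 cell, and without the 5 top cells 0 CRH UMIs were left in STMN2-high cells and 2 in the others. STMN2-high cells were called higher for 5 precursors in D10_dSMADi (SST, CRH, ADCYAP1, PTH2 and HCRT, the last from 2 UMIs), beside 12.3% of all genes, and for 7 in D10_XAV939 (SST, CRH, ADCYAP1, TRH, PTH2, NTS and TAC1), beside 8.96%. The TAC1 call rested on 4 UMIs and was lost without the 5 top cells (2.03, interval -1.14 to 4.11). Of the precursors with at least 50 UMIs, 1 of 4 (SST) was called higher in D10_dSMADi and 5 of 6 in D10_XAV939 (SST, NTS, TRH, CRH, ADCYAP1). None was called lower in either condition (8.36% and 9.39% of all genes). In D10_dSMADi 2 cells held 81.4% of SST UMIs, and without the 5 top cells the SST ratio there fell from 10.58 to 3.35 with an interval that reached below 0, and was not called. In D10_XAV939 it remained called, at 9.73 against 10.77.

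TRH was spread differently over the D10 conditions. In D10_dSMADi it was at 17.1 CPM in STMN2-high cells and 24.9 CPM in the others. The 27 cells with at least 10 TRH UMIs were all outside the STMN2-high cells, as were 99.3% of all cells. They held the progenitor gene SOX2 at 664 CPM and the proliferation gene MKI67 at 56.8 CPM, against 718 and 198 CPM in the remaining cells. In D10_XAV939 TRH was at 57.3 CPM in STMN2-high cells and 1.33 CPM in the others (log2 ratio 5.43), or 100 of 175 UMIs. The 5 top cells were all STMN2-high, and without them 26 UMIs were left in STMN2-high cells and 75 in the others, a ratio of 3.59. Within STMN2-high cells D10_XAV939 over D10_dSMADi gave a TRH ratio of 1.75 (0.58 to 3.23, from 100 and 6 UMIs), beside 6.04% of all genes called higher. Leaving out the 5 top cells of each condition left 26 and 6 TRH UMIs in these 68 and 17 cells, for which no ratio was computed. Of the top cells all 5 were STMN2-high in D10_XAV939 and 0 in D10_dSMADi, so UMIs were taken from 1 side only. Few cells thus held most TRH UMIs on that side, and whether the rise remains without them was not tested. Within the other cells the ratio was -4.22 (-4.58 to -3.89), beside 4.73% called lower. Among STMN2-high cells SST (0.76, interval 0.55 to 0.97) and CRH (0.10, interval -0.39 to 0.63) were not called and ADCYAP1 fell by 1.37 (-1.96 to -0.76), beside 5.35% of genes. In the other cells TAC1 was called higher with XAV939 (2.20, from 33 and 10 UMIs), beside 2.03% of all genes.

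**Figure D2:**
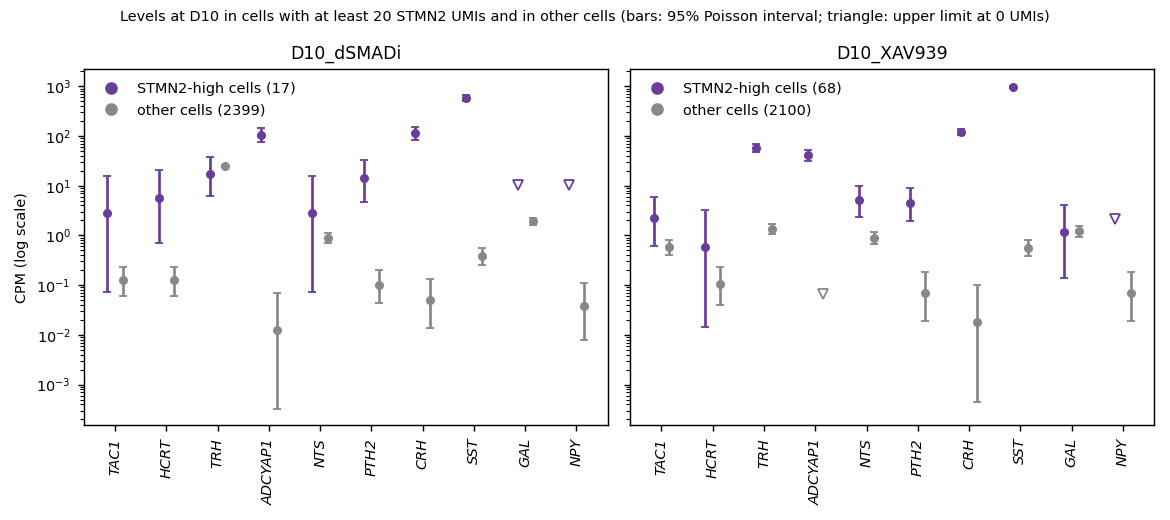
Level of each precursor gene (CPM, log axis) at D10 in cells with at least 20 STMN2 UMIs (purple) and in all other cells (grey) of D10_dSMADi and D10_XAV939; bars are 95% Poisson intervals and triangles upper limits at 0 UMIs. SST, CRH and ADCYAP1 are high in the STMN2-high cells of both conditions, but SST and CRH rest on few cells in D10_dSMADi. Without the 5 top cells of each gene 1 SST and 0 CRH UMIs are left in its STMN2-high cells. The other cells hold TRH at 24.9 CPM in D10_dSMADi and 1.33 CPM in D10_XAV939.

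The 23 cells of D10_XAV939 with at least 10 SST UMIs held 96.2% of the SST UMIs and were all STMN2-high. All 23 held CRABP1, a retinoic acid binding protein, at 11299 CPM against 418 CPM in the other cells, while SOX2 was at 142 against 1021 CPM. CRH was found in 15 of them and ADCYAP1 in 13. The 68 STMN2-high cells of this condition held 213 of its 214 CRH UMIs and all 71 ADCYAP1 UMIs. The other cells above, and the cells without SST below, were mostly not STMN2-high. SST cells were not compared with the remaining STMN2-high cells, so these contrasts do not separate SST cells from STMN2-high cells in general. Over 20 random draws that thinned cells to 10000 UMIs, a median of 33.7% of cells with SST also held CRH (28.9% to 40.5%), against 0.494% of cells without SST, and 31.8% held ADCYAP1 (24.4% to 43.2%), against 0.470%. In a single draw with 42 SST cells the counting interval of the CRH share was 19.6% to 49.5%. TRH was held by a median of 12.9% of cells with SST (7.69% to 18.9%), against 1.74% of cells without it, and by 24.5% of cells with CRH (15.4% to 30.8%), against 1.75%. Over the 2168 cells the genes most like SST were ROBO3 (Pearson r = 0.66), CNTN2 (0.65), NEFM (0.65), SCRT1 (0.63) and NSG2 (0.63), and these cells share 1 condition and differ in depth.

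From D22 to D24, 9 of the 10 precursors were called higher, where 12.8% of all genes were, and none was called lower (17.1%). These ratios are over all cells, and the make-up of the cells differed. Cells grouped by TBR1 and PPP1R17, described below, were 8.11% of cells at D22 and 58.4% at D24. In these cells TRH was lower at D24 than at D22, by less than 2-fold. The ratios were 6.05 for SST, 3.76 for TAC1, 3.68 for NTS, 3.45 for ADCYAP1, 3.22 for PTH2, 2.97 for GAL, 2.90 for HCRT, 1.37 for TRH and 1.25 for CRH on the log2 scale. From D24 to D26 TAC1 was called higher at 2.92 (2.81 to 3.03), beside 9.91% of all genes, and 7 were called lower, beside 4.88%: CRH fell by 4.90, PTH2 by 3.55, TRH by 3.32, GAL by 2.78, NTS by 2.61, ADCYAP1 by 1.73 and SST by 1.67. HCRT fell by 0.92 (-0.99 to -0.84), short of 2-fold. Set against D22, D26 was called higher for TAC1, SST, HCRT, ADCYAP1 and NTS (20.1% of all genes) and lower for CRH, TRH and, by its limit, NPY (15.8%), while PTH2 (-0.33) and GAL (0.20) were not called. Without the 5 top cells of each gene the D24 over D22 ratio of SST was 7.69 and of GAL 3.59, and the D26 over D24 ratio of CRH was -6.40. Those cells held 85.2% of SST and 47.5% of GAL UMIs at D22, against 53.9% and 19.5% at D24. They held 66.7% of CRH UMIs at D26, against 5.60% at D24. Such unequal shares by themselves move these ratios away from equal levels. The median of all genes stood at -0.11 for D24 over D22 and 0.31 for D26 over D24.

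The late levels spread over cells to different extents. At D24 the 5 top cells held 0.970% of ADCYAP1, 0.992% of HCRT, 1.28% of TRH, 2.82% of PTH2 and 3.22% of NTS UMIs. They held 5.60% of CRH, 12.9% of TAC1, 19.5% of GAL and 53.9% of SST UMIs. At D26 they held 4.35% of TAC1 UMIs and 58.3% of SST UMIs, and CRH, with 39 UMIs left, had 66.7% in 5 cells. At D22 CRH and NTS were narrower than 2 days later, with 24.2% and 24.1% of UMIs in 5 cells against 5.60% and 3.22% at D24.

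**Figure D3:**
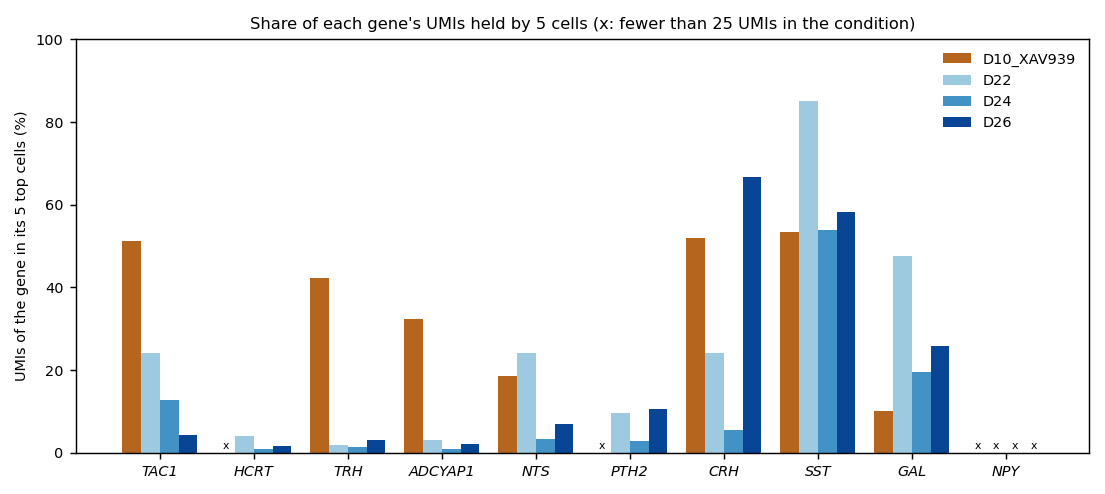
Percent of the UMIs of each precursor gene held by the 5 cells with most of them in D10_XAV939, D22, D24 and D26; an x marks fewer than 25 UMIs. SST has over 50% of its UMIs in 5 cells in all 4 conditions, while the bars of HCRT, TRH and ADCYAP1 at D24 are under 2%.

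TAC1 and HCRT were higher in the cells rich in GNRH1. Cells with at least 20 GNRH1 UMIs, called GNRH1-high, numbered 8 at D22, 357 at D24 and 1047 at D26. This contrast was used to choose the genes, and the share of all genes called is printed beside the counts without reading anything from it. At D24 TAC1 was at 68.8 CPM in GNRH1-high cells and 7.49 CPM in other cells, a log2 ratio of 3.20 (2.97 to 3.43), and HCRT was at 129 and 46.5 CPM, a ratio of 1.47 (1.32 to 1.62); these were the 2 precursors called higher (2.36% of all genes). At D26 TAC1 was at 200 and 62.3 CPM (1.68, interval 1.61 to 1.76) and HCRT at 65.1 and 21.8 CPM (1.58, interval 1.46 to 1.70). GAL was called higher too at D26, at 1.51 and 0.204 CPM (2.89, interval 1.84 to 3.93), from 17 UMIs in 15 cells and 18 UMIs in all others (2.57% of all genes). At D22 HCRT was found in 6 of the 8 GNRH1-high cells (ratio 4.54, interval 3.63 to 5.32), and the TAC1 ratio of 5.60 rested on 3 UMIs in 1 cell (4.36% of all genes). TRH, with 0 UMIs in the 8 cells, was called lower, with a ratio of at most -1.08 (1.64% of all genes).

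In shares of cells, TAC1 was found in 36.1% of GNRH1-high cells at D24 and 3.13% of other cells (8.12% and 1.03% after thinning, with median depths of 8296 and 7144 UMIs). At D26 the shares were 49.1% and 19.3% (18.7% and 6.27%, at 9839 and 8374 UMIs). HCRT was found in 57.1% of GNRH1-high cells and 25.1% of other cells at D24 (19.3% and 6.67%) and in 36.4% and 13.4% at D26 (9.46% and 3.03%). GNRH1-high cells still held a minority of the TAC1-positive cells, 32.0% at D24, and of the HCRT-positive cells, 8.51% at D24 and 22.2% at D26. With a gate of only 1 GNRH1 UMI, which took in 1310 cells at D24 and 4862 at D26, TAC1 was found in 13.7% and 27.0% of gated cells and 2.86% and 18.3% of the rest (3.97% and 9.46% against 0.859% and 5.88% after thinning), and the log2 ratios of HCRT (0.71 and 0.87) and of TAC1 at D26 (0.86) were under 2-fold.

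Most other late precursors were lower in GNRH1-high cells. At D24 7 were called lower (6.61% of all genes): SST fell by 4.53, NTS by 3.05, ADCYAP1 by 2.46, TRH by 2.43, PTH2 by 2.11 and CRH by 1.70, and GAL, with 0 UMIs against 169, was at most -1.44. The share of cells with SST hardly differed, at 0.560% of GNRH1-high cells (2 cells) and 0.686% of other cells. Without its 5 top cells the SST ratio was -3.41 (-6.46 to -1.55). At D26 NTS fell by 2.24, ADCYAP1 by 2.42, TRH by 1.52 and PTH2 by 1.26 (5.34% of all genes), while SST (-0.93) and CRH (-2.28, from 1 UMI) were not called and GAL was higher. With the gate of 1 GNRH1 UMI most of these differences were under 2-fold. NTS was then at -0.44, TRH at -0.52, ADCYAP1 at -0.44, PTH2 at -0.31 and CRH at -0.09 at D24, and NTS at -0.37, TRH at -0.21 and ADCYAP1 at -0.38 at D26, none of them called. At D26 PTH2 (-1.07) stayed called lower with this gate, CRH (-1.19, interval -2.35 to -0.14) became so, and GAL (1.69) stayed called higher. TRH, for example, was found in 12.0% of GNRH1-high cells and 48.4% of other cells at D24 (3.36% and 20.9% after thinning).

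DLX1, DLX2 and DLX5 are homeobox genes of GABAergic neurons. Cells with at least 3 summed UMIs of them (DLX-positive) numbered 757 at D22, 356 at D24 and 1447 at D26, and 8, 215 and 781 of these were also GNRH1-high, so the values of both gates rest in large part on the same cells at D24 and D26. TAC1 was at 2.00 and 0.645 CPM in DLX-positive and other cells at D22, 66.3 and 7.59 CPM at D24, and 185 and 58.6 CPM at D26 (log2 ratios 1.63, 3.13 and 1.66). HCRT was at 12.7 and 6.20 CPM, 131 and 46.4 CPM, and 74.3 and 18.1 CPM (1.04, 1.49 and 2.04). The D22 HCRT ratio was 0.89 and under 2-fold without its 5 top cells, and the D26 TAC1 ratio was 0.74 when at least 6 summed UMIs were asked for. At D22 HCRT was higher in the cells grouped by TBR1 and PPP1R17, described below, than in DLX-positive cells.

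Among the remaining precursors in DLX-positive cells, SST was called higher at D22 (4.69, from 19 UMIs in 3 cells and 8 UMIs in all others), which with TAC1 and HCRT made 3 (1.79% of all genes), against 2 at D24 (2.37%). This SST call rests on single cells, as 1 cell held 15 of the 27 SST UMIs of D22 and 5 cells held 85.2%. At D26 CRH (3.15, from 24 UMIs in 7 cells against 15 UMIs) and GAL (1.89, from 14 and 21 UMIs) joined them (2.97%). The CRH ratio was 1.31 (-0.84 to 3.15) without the 5 top cells and no longer called, and the GAL ratio was 1.09 (-0.35 to 2.31) and no longer called with at least 6 summed UMIs. Called lower in DLX-positive cells were 3 at D22 (TRH, ADCYAP1, PTH2), 7 at D24 (these with SST, NTS, CRH and GAL) and 4 at D26 (these with NTS), beside 4.60%, 5.98% and 5.29% of all genes. The share of D24 cells with SST was not lower, at 0.843% of DLX-positive cells and 0.674% of others, and 1 cell held 361 UMIs. At D22 NTS (0.51) and CRH (0.14) were not called, but without their 5 top cells they were called lower, at -1.61 and -2.88. The D22 TRH ratio of -1.06 was -0.77 and no longer called with at least 1 summed DLX UMI.

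GNRH1-high cells were also compared with DLX-positive cells under 20 GNRH1 UMIs. As 60.2% of GNRH1-high cells at D24 and 74.6% at D26 were DLX-positive too, this does not separate GNRH1 from the DLX genes. At D24, with 357 and 141 cells, TAC1 was at 68.8 and 58.2 CPM (ratio 0.24, interval -0.15 to 0.65) and HCRT at 129 and 123 CPM (0.07, interval -0.21 to 0.34), and none of the 10 was called higher (0.968% of all genes) or lower (0.670%). At D26, with 1047 and 666 cells, TAC1 was at 200 and 189 CPM (0.08, interval -0.02 to 0.18) and HCRT at 65.1 and 76.1 CPM (-0.22, interval -0.39 to -0.06). These intervals leave out a 2-fold difference in CPM for either gene by counting error only. They treat UMIs of 1 cell as independent, while 158 of the 666 DLX-positive cells of D26 held all 1226 TAC1 UMIs. With 1 library per day a 2-fold difference is therefore not excluded. Before thinning, the share of cells with a TAC1 UMI still differed, at 49.1% of GNRH1-high and 23.7% of DLX-positive cells at D26. At D24 129 of 357 and 31 of 141 cells held a TAC1 UMI. The similar TAC1 levels thus rested on a smaller share of the DLX-positive cells. For HCRT the D26 shares were 36.4% and 37.4%. None was called higher at D26 (0.483%), and SST (2.40 and 12.3 CPM) and CRH (0.0888 and 3.55 CPM, the first from 1 UMI) were called lower in the GNRH1-high cells (0.583%). Both calls rest on few DLX-positive cells, with 80 SST UMIs in 13 cells and 23 CRH UMIs in 6. The shares of cells with SST were 1.53% of GNRH1-high and 1.95% of DLX-positive cells. At D22 the 8 GNRH1-high cells were called higher for HCRT (3.74, interval 2.79 to 4.56) and TAC1 (4.36, from 3 UMIs), beside 5.76% of all genes, and none was called lower (2.39%).

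The 4 classes of cells that the GNRH1 and DLX gates make were set side by side after the data were seen. At D24 TAC1 was at 71.3 CPM (60.1 to 84.0) in the 215 cells in both gates, 64.7 CPM (51.2 to 80.6) in the 142 GNRH1-high cells that were not DLX-positive, 58.2 CPM (45.6 to 73.3) in the 141 cells that were only DLX-positive and 6.53 CPM in cells of neither gate. HCRT was at 135, 118, 123 and 45.1 CPM in these classes. The intervals of the first 3 classes overlap for both genes. At D26 TAC1 was at 182 CPM (173 to 191) in the 781 cells in both gates, 261 CPM (242 to 282) in the 266 that were only GNRH1-high, 189 CPM in the 666 that were only DLX-positive and 52.3 CPM in neither. HCRT was lower in the cells that were only GNRH1-high, at 38.5 CPM (31.3 to 46.9), than in both gates (73.0 CPM) or only DLX-positive cells (76.1 CPM), and was at 17.5 CPM in neither.

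**Figure D4:**
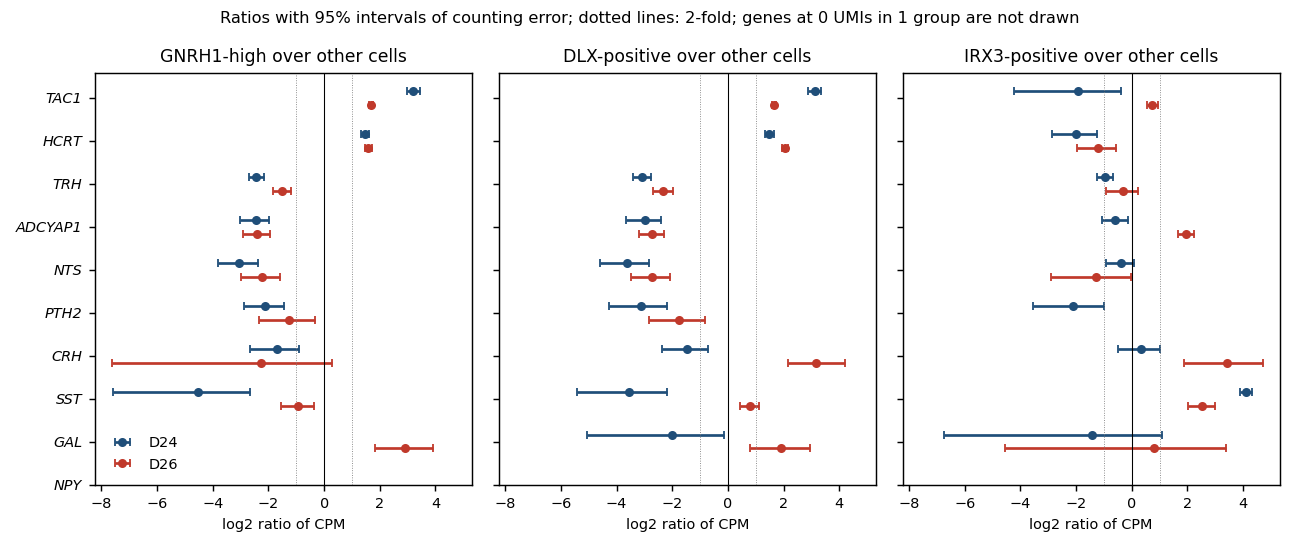
Log2 ratio of CPM of each precursor gene in GNRH1-high, DLX-positive and IRX3-positive cells over all other cells at D24 (blue) and D26 (red), with 95% intervals of counting error; dotted lines mark 2-fold and a gene with 0 UMIs in 1 group is not drawn. TAC1 and HCRT lie to the right in the GNRH1-high and DLX-positive cells and TRH, ADCYAP1, NTS and PTH2 to the left, whereas in IRX3-positive cells SST lies to the right.

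SST was higher in cells with IRX3, a homeobox gene of the neural tube, at D24. Cells with at least 1 IRX3 UMI numbered 312 at D22, 141 at D24 and 149 at D26. SST was at 189 CPM in the 141 IRX3-positive cells of D24 and 10.9 CPM in other cells (log2 ratio 4.11, interval 3.88 to 4.34; 4.68% of all genes were called higher), and 4.52 without the 5 top cells. It was found in 11.3% of IRX3-positive cells and 0.513% of others (6.38% and 0.335% after thinning, at depths of 6940 and 7181.5 UMIs), and 25.8% of the SST-positive cells were IRX3-positive. TAC1, PTH2 and HCRT were called lower there (4.13%), with HCRT in 8.51% of IRX3-positive cells and 26.6% of others. TRH was found in 16.3% and 47.4%, and its ratio of -0.96 was not called as reported but was called lower under 6 alternatives, at -1.26 to -1.96 in the 5 that change the ratio. NTS (-0.40) and ADCYAP1 (-0.59) were not called either, but with at least 2 IRX3 UMIs they were called lower at -1.32 and -1.11, while the TAC1 call was lost (-2.03, interval -7.34 to 0.45). In the IRX3-positive cells of D22, which held 0 SST UMIs, none was called higher (6.27%) and NTS, TRH, ADCYAP1, PTH2 and HCRT were called lower (7.61%). Of these the NTS call was lost without the 5 top cells (-0.76) and with at least 2 IRX3 UMIs (-0.57), and those of ADCYAP1 (-1.92), PTH2 (-0.93) and HCRT (-1.36) were lost when IRX3 was gated in cells thinned to 1500 UMIs.

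At D26 the IRX3-positive cells were called higher for ADCYAP1, SST and CRH (4.33% of all genes) and lower for NTS and HCRT (3.23%). ADCYAP1 was at 60.5 and 15.7 CPM (1.95, interval 1.64 to 2.24) and was found in 32.2% of IRX3-positive cells and 9.81% of others (6.04% and 2.19% after thinning). SST was at 23.0 and 4.00 CPM (2.52) and CRH at 3.63 and 0.337 CPM (3.43, from 6 UMIs in 3 cells). Without the 5 top cells the SST ratio was 1.05 (-0.42 to 2.20) and the CRH ratio 2.33 (-3.09 to 5.08), and neither was called. NTS, found in 1 of the 149 IRX3-positive cells, was not called without them either (-1.17, interval -2.80 to 0.06). The SST ratio was 0.15 with at least 2 IRX3 UMIs.

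The SST cells of D24 and D26 differed in the genes around them. The 23 D24 cells with at least 10 SST UMIs held 90.7% of the SST UMIs, 17 held CRABP1 (2108 against 132 CPM in other cells) and 10 held ADCYAP1, and 7 were IRX3-positive. The genes most like SST over the 9107 cells of D24 were ROBO3 (r = 0.22), THSD7A (0.18), RGS10 (0.18), CRABP1 (0.17) and IRX3 (0.15), of which ROBO3 also led in D10_XAV939. The 9 D26 cells with at least 10 SST UMIs held CRABP1 at 23.4 against 69.1 CPM, TAC1 at 678 against 77.4 CPM in 6 cells, and the LIM homeobox gene ISL1 at 257 against 25.3 CPM in 5 cells.

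When every cell was put in 1 group only, TRH, ADCYAP1, NTS, PTH2 and CRH were highest at D22 in the 772 cells with at least 3 summed UMIs of TBR1 and PPP1R17, genes of glutamatergic neurons. These held TRH at 291 CPM, CRH at 37.4 CPM, ADCYAP1 at 37.2 CPM, NTS at 32.9 CPM and PTH2 at 15.1 CPM. HCRT was at 31.1 CPM in them, below the 155 CPM of the 8 GNRH1-high cells and above the 11.6 CPM of the 749 DLX-positive cells under 20 GNRH1 UMIs. The 8 GNRH1-high cells held 0 UMIs of TRH, CRH, ADCYAP1, NTS and PTH2, with an upper limit of 44.0 CPM for each, so only TRH was above what they could hold. TRH was found in 71.4% of the 772 TBR1/PPP1R17 cells of D22 (28.5% after thinning). The 5688 cells in no named group held it in 36.1% (9.34%) and the 1999 dividing cells in 21.9% (3.70%). At D24 the TBR1/PPP1R17 cells (5319) and the cells in no named group (3117) were alike in ADCYAP1 (58.0 and 58.2 CPM) and PTH2 (24.6 and 25.8 CPM), and TRH was at 191 and 246 CPM. Within the TBR1/PPP1R17 cells TRH was thus lower at D24 than at D22, while ADCYAP1 and PTH2 were higher, each by less than 2-fold. The gate was the same 3 UMIs on both days, at median depths of 11704 and 7476 UMIs in these cells. HCRT was at 46.9 and 44.0 CPM in these groups, at 129 and 123 CPM in GNRH1-high and DLX-positive cells, and at 12.2 CPM in the IRX3 group. At D26 TAC1 was at 200 CPM in GNRH1-high, 189 CPM in DLX-positive, 127 CPM in IRX3, 110 CPM in ungrouped and 40.8 CPM in TBR1/PPP1R17 cells. How much of the low values comes from free RNA was not tested.

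**Figure D5:**
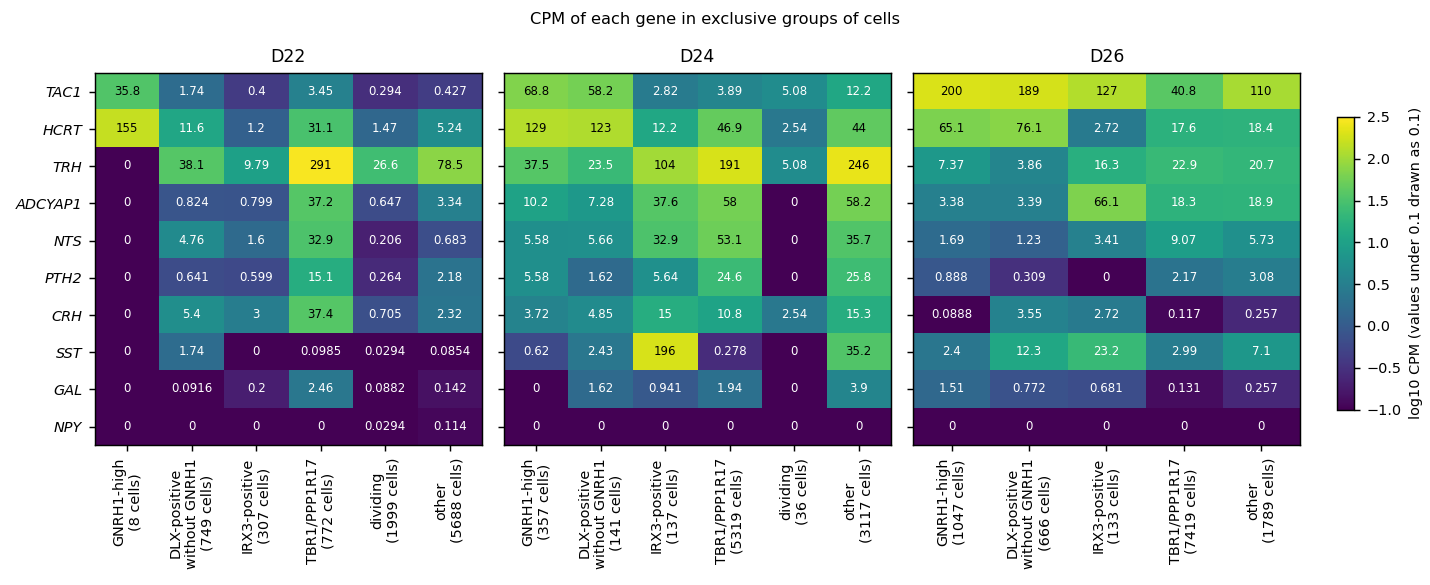
Level of each precursor gene (CPM in each cell, colour by log10 CPM) in groups that share no cell at D22, D24 and D26; DLX-positive cells here hold fewer than 20 GNRH1 UMIs, and the number of cells stands under each column. TRH reaches 291 CPM in the TBR1/PPP1R17 cells of D22, SST 196 CPM in the IRX3 group of D24 and TAC1 200 CPM in the GNRH1-high cells of D26.

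Some precursors shared cells. Cells were thinned to 5000 UMIs in 20 random draws, which left out 966 of 9107 cells at D24 and 1238 of 11056 at D26 as too shallow, and the shares are medians over the draws with their lowest and highest values. At D24 59.2% of cells with CRH also held TRH (56.6% to 62.5%), against 40.0% of cells without CRH, and 4.83% held GAL (3.57% to 5.83%), against 0.788%. In a single draw with 334 CRH cells the counting interval of the TRH share was 51.1% to 62.0%. Cells with NTS held TRH in 47.4% (45.2% to 49.3%) and cells without it in 40.0%, and cells with ADCYAP1 held it in 46.4% against 39.3%. TAC1 cells held less of this set. Of D24 cells with TAC1, 20.5% held TRH (17.0% to 23.1%) against 41.5% of cells without TAC1, 3.92% held NTS against 11.3%, and 11.5% held ADCYAP1 (8.78% to 13.6%) against 21.9%. At D26 30.4% of cells with SST held TAC1 (23.6% to 36.7%), against 16.3% of cells without SST, and in a single draw with 56 such cells the counting interval was 23.4% to 49.6%. TAC1 and HCRT shared cells differently on the 2 days. Of cells with TAC1, 26.9% held HCRT at D24 (23.0% to 30.4%), against 19.2% of cells without TAC1, and 8.97% did at D26 (7.18% to 9.81%), against 10.5%. Of D26 cells with TAC1 4.33% held ADCYAP1 (3.74% to 4.83%), against 6.93%.

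The genes most like each precursor over single cells are given as a description. GNRH1 and the DLX genes were used to choose the precursors, so their likeness to TAC1 and HCRT repeats that choice. The genes most like TAC1 were ISL1 (r = 0.35), GAD2 (0.33) and GNRH1 (0.29) over 9107 cells of D24 and MEIS2 (0.38), DSEL (0.28) and ISL1 (0.27) over 11056 cells of D26. HCRT was most like GNRH1 (0.16), DLX5 (0.15) and DLX1 (0.15) at D24 and RASD1 (0.30), SCGN (0.28) and DLX1 (0.26) at D26. For TRH they were RSPO3 (0.30), NDUFB8 (0.27) and NNAT (0.25) at D24, for ADCYAP1 RSPO3 (0.15) and EMX2 (0.12), and for NTS PPP1R17 (0.35 over 9523 cells of D22 and 0.11 at D24). CRH was most like FSTL5 (0.30) at D22 and GAL (0.12) at D24, PTH2 was most like MLLT11 (0.11) at D24, and GAL was most like FABP5 (0.23) over 1009 cells of D0. All cells of a correlation share a condition and differ in depth.

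The wider peptide system was counted over lists of 44 other precursors, 28 receptors and binding proteins and 4 processing enzymes. Of the other precursors 14 had 50 UMIs at D22 and D24 together, and from D22 to D24 3 were called higher (TAC3, NPB, PNOC) and 4 lower (POMC, GHRH, ADM, NPPC), where 12.8% of all genes were higher and 17.1% lower, with a median log2 ratio of -0.07 beside -0.11 for all genes. Of 7 receptors 0 were called higher and 5 lower, among them SSTR2, a somatostatin receptor, from 117 to 5.62 CPM, and PTH2R, the receptor of the PTH2 peptide, from 0.353 to 0.0570 CPM. Of the 4 enzymes PCSK2 (40.8 to 114 CPM) and PAM (32.1 to 102 CPM) were called higher. From D24 to D26, where 9.91% of all genes were higher and 4.88% lower, 4 of 14 other precursors were called higher (PENK, GHRH, NMS, PNOC) and 3 lower (TAC3, NPB, GALP). Of 8 receptors tested, ADCYAP1R1 (0.271 to 1.09 CPM), HCRTR2 (0.804 CPM at D26), NPY2R (0.413 to 2.13 CPM) and GALR1 (0.143 to 0.704 CPM) were called higher and 0 lower, and of the 4 enzymes PCSK1 was called higher (46.7 to 120 CPM).

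The same lists were compared between GNRH1-high and other cells, where 6.61% and 5.34% of all genes were called lower and 2.36% and 2.57% higher at D24 and D26. In GNRH1-high cells PCSK1 was at 14.0 against 48.3 CPM at D24 and 35.7 against 131 CPM at D26, and PCSK2 at 33.8 against 118 CPM and 47.0 against 155 CPM, and these 2 of 4 enzymes were called lower on both days (PAM at D24 as well). NMU, the precursor of neuromedin U, was at 124 against 43.5 CPM at D24 and 55.5 against 21.9 CPM at D26, and GALP, a relative of galanin, at 30.4 against 7.32 CPM at D24; they were the 2 other precursors called higher on both days, of 11 tested at D24 and 13 at D26. GHRH was called lower on both days and PNOC at D26. Of 3 receptors tested at D24 SSTR2 was called lower, and of 7 tested at D26 ADCYAP1R1 and NPY2R were called higher and GALR1 lower. NPY2R, a receptor of NPY, was at 11.4 against 0.952 CPM in GNRH1-high and other cells of D26, where 0 NPY UMIs were found.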

How the data were processed

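The authors aligned the reads to GRCh38 with Cell Ranger (3.1 in the submitters' processing notes; the file headers name 3.1.0 for D22 to D26 and 6.1.2 for the tagged library) and deposited UMI counts per gene and cell barcode, without normalization, for the barcodes that Cell Ranger called as cells and, in the tagged library, assigned to a condition. The 5 conditions of D0 to D10 were tagged and run as 1 library. Cells were kept by the study's limits on UMIs, genes, complexity and mitochondrial share, except that at D0 the complexity limit of 0.85, which left 1 of 1292 barcodes, was dropped after this was seen. For D5 and D10 the cell numbers given in the study equal the deposited barcodes (2480 and 2919, 2778 and 2638), of which the limits left 2419 and 2815, 2416 and 2168 here. The limits left 78.1% of the D0 barcodes and 82.2% to 97.5% of those of the other conditions. The 5 tagged conditions shared 0 barcodes, and other pairs of conditions at most 37.

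Intervals, all at 95%, are exact Poisson for levels, exact binomial on how UMIs divide between groups for ratios, and Clopper-Pearson for shares. UMIs of 1 cell are not independent, so these intervals understate the error of genes concentrated in few cells. A ratio was called at 2-fold or more with an interval that leaves out 1, with 3 UMIs standing for a count of 0 and no ratio where both sides held at most 3. The shares of all genes called are over genes with at least 50 UMIs. No test was made, with 1 sample per condition and genes chosen on their values. Doublets were scored in each condition by simulated pairs and kept. Doublet-scored cells, the barcode filter, the gates, the 5 top cells of each gene, the fold of a call, thinning and the mean over cells were varied. Simulated data were used to check the computation of ratios and intervals.

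All 10 precursors are named. Of the other lists, those named are among the 5 with most CPM, or were called and chosen after their values were seen. Likeness is Pearson's r over the cells of the condition with most cells that hold the gene, with log-normalized values (10000 per cell) and genes found in at least 1% of cells. Conditions with fewer cells, the sets of cells with at least 10 UMIs of a gene and the 20 draws for pairs of genes were added after seeing the data. The genes, gates and lists were chosen with earlier results of these data known. Positions are from GENCODE on GRCh38. Python 3.11.15 was used with numpy 2.4.6, scipy 1.17.1, pandas 2.3.3, scikit-learn 1.9.0 and matplotlib 3.10.9.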

Additional observations from a re-analysis of the deposited data

Results flagged for a closer look

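For 6 pairs of ratios the same contrast ran in opposite directions in 2 conditions or groups of cells, and none of these differences was tested. On the log2 scale, GAL in GNRH1-high cells over other cells was at most -1.44 at D24, from 0 UMIs, and 2.89 at D26. In DLX-positive cells over other cells SST was at 4.69 at D22 and -3.54 at D24, CRH at -1.48 at D24 and 3.15 at D26, and GAL at -2.02 at D24 and 1.89 at D26. ADCYAP1 in IRX3-positive cells over other cells was at -2.72 at D22 and 1.95 at D26. TRH in D10_XAV939 over D10_dSMADi was at 1.75 in STMN2-high cells and -4.22 in the other cells. Without the 5 top cells 26 of the 100 TRH UMIs were left in the STMN2-high cells of D10_XAV939, so the positive ratio rests on few cells. The D24 GAL ratio in DLX-positive cells rests on 1 cell and was not called without the 5 top cells (-1.70), without the 6% of cells with the highest doublet scores (-1.77) or with DLX-positive cells gated after thinning (-1.56). For SST at D22, 1 cell held 15 of 27 UMIs and 5 cells held 85.2%. The share of cells with SST was higher in DLX-positive cells on both days, at 0.396% against 0.0684% at D22 and 0.843% against 0.674% at D24. The positive SST, GAL and CRH ratios rest on 14 to 24 UMIs in the smaller group of cells, the positive TRH ratio on 6 UMIs in D10_dSMADi, the CRH ratio of D26 was not called without the 5 top cells, and the GAL ratio of D26 in DLX-positive cells was not called with at least 6 summed UMIs (1.09).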

How the results depend on the processing

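Each ratio was recomputed with other choices, and of 671 ratios recomputed with other cells or another mean 552 stayed within the 95% interval of the value as reported, 119 left it and 0 called ratios changed sign. The 17 ratios called between successive days of D22, D24 and D26 became 13 to 19 under the alternatives, and the 6 called with XAV939 became 4 to 8. Summed over D22, D24 and D26, the 7 precursors called higher in GNRH1-high cells became 4 when a call needed 4-fold and 4 with at least 1 GNRH1 UMI, and 5 over D24 and D26 alone, a count added after seeing the data. The 9 in DLX-positive cells became 4 at 4-fold. Without the 5 cells that held most UMIs of each precursor, the 4 in IRX3-positive cells became 2 and the 12 in STMN2-high cells of D10 became 7. The 26 detections over the 8 conditions became 48 without thinning, 17 with all conditions thinned to 1500 UMIs (added after seeing the data) and 8 when 5% of thinned cells were asked for. Ratios not called as reported could take another direction: SST in DLX-positive cells of D26 was at 0.78 and became -1.43 with at least 6 summed UMIs but 2.87 with at least 1, 1.49 without the 5 top cells, 1.45 as the mean over cells and 1.03 with the thinned gate, and NTS in DLX-positive cells of D22 was at 0.51 and became -3.37 without the 6% of cells with the highest doublet scores and 1.01 with at least 6 summed UMIs. The cause of these shifts was not tested. No paired analysis was possible because each condition is 1 sample, the labels carry no replicate numbers and no test was made. Median depth per cell was lowest at D24, at 7180 UMIs, and summed UMIs were fewest in D10_XAV939, at 58073098, where 3 UMIs make 0.0517 CPM.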

Other observations

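Outside the genes of the GNRH1 contrast, PNOC, the precursor of nociceptin, followed the course of TAC1, at 0.0997, 1.17 and 12.4 CPM at D22, D24 and D26, but was lower in the GNRH1-high cells of D26 (4.09 against 13.5 CPM). POMC, the precursor of ACTH and other melanocortins, was at 11.1 CPM at D22 and 0.0285 CPM at D24. With XAV939 at D10, where 2.70% of all genes were called higher and 4.52% lower, none of the 19 other precursors with 50 UMIs was called higher and 3 were called lower: POMC (2.08 to 0.551 CPM), NPW (3.95 to 1.81 CPM) and PYY (0.800 to 0.155 CPM). VIPR2, a receptor of the PACAP made from ADCYAP1, was the 1 of 6 receptors called higher there (0.229 to 1.52 CPM), and PCSK2 the 1 of 4 enzymes (0.394 to 1.05 CPM).

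The 7 D24 cells with at least 10 TAC1 UMIs all held GAD2, which makes GABA, at 426 CPM, 6 held ISL1 (376 against 9.73 CPM) and 1 was GNRH1-high. At D26 the number of such cells was 144, which held 36.4% of TAC1 UMIs, and 58 of them were GNRH1-high. At D22 the 15 cells with at least 10 CRH UMIs held 45.7% of CRH UMIs, 12 of them held TRH, and 11 were TBR1/PPP1R17 cells. Of the 8 D22 cells with at least 10 NTS UMIs, 7 were TBR1/PPP1R17 cells, with PPP1R17 at 600 against 24.6 CPM.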
